A study of Homo sapiens with 3 samples.

Results

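The TGF-beta receptors and SMADs were examined in 3 RNA sequencing libraries of the established cell line MIAPaCa-2, which was derived from a human pancreatic carcinoma and is labelled as epithelial cells. The members were the 10 genes TGFB1, TGFBR1, TGFBR2, TGFBR3, ACVR1B, BMPR2, SMAD2, SMAD3, SMAD4 and SMAD7, of 14949 genes in the table. They were chosen by name, with earlier values of these libraries known, and the loss of TGFBR2 reads in sh-METTL3 was the reason for the choice. The libraries came from cells with a control hairpin and no treatment (sh-CTL), cells with a hairpin against METTL3 and no treatment (sh-METTL3), and sh-CTL cells kept for 24 h in 80 nM NMS-P937, which inhibits PLK1 (sh-CTL + PLK1i, or PLK1i for short). Values of the 3 libraries follow that order throughout. METTL3 is the catalytic subunit of the enzyme that writes N6-methyladenosine on RNA, and PLK1 is a kinase of mitosis. The METTL3-KD line was a gift to the study, and whether it was a clone or a pool is not given in the sources used here. Each group held 1 library, so every difference below lies between 2 libraries, no test of a condition was possible and no p-value is given.

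TGF-beta is a secreted cytokine that binds a type II receptor, which then recruits and phosphorylates a type I receptor. The type I receptor phosphorylates the receptor SMADs, which join SMAD4 and enter the nucleus to switch genes on or off. Activins and bone morphogenetic proteins (BMPs) use related receptors, and SMAD6 and SMAD7 feed back to damp the signal. In pancreatic cancer the pathway is known both for restraining growth of epithelial cells and for driving the epithelial-mesenchymal transition, and SMAD4 is a frequently mutated gene of the disease.

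Reads in listed genes came to 37449329, 46944898 and 47727520. METTL3 itself stood in sh-METTL3 at 41.9% of sh-CTL (95% counting interval 39.5% to 44.4%), which goes with the label. Levels are given as normalized counts, which are reads scaled to a common depth, and changes as the difference of log2(normalized count + 1) from sh-CTL. Brackets hold 95% intervals (exact, Clopper-Pearson) for the ratio of the reads of both libraries, which cover counting error only. A gene was counted as lower or higher at a change of at least 2-fold, a log2 change of 1. By that rule 2.94% of all genes were lower and 3.42% were higher in sh-METTL3, and 1.13% were lower and 1.39% were higher with PLK1i. The median change over all genes was 0.00 in both comparisons. In these bulk libraries fewer cells of a type and less RNA per cell cannot be told apart.

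Of the 10 genes, TGFBR2 and SMAD7 were at least 2-fold lower in sh-METTL3, and no member was at least 2-fold higher. No member passed 2-fold in either direction with PLK1i. The counts of 2 lower members and the 2.94% of all genes are set side by side as a description, since the members were picked with these values known. The remaining 8 members changed by less than 2-fold in sh-METTL3, so TGFBR1, SMAD2, SMAD3 and SMAD4 stayed within 2-fold in the library with the low TGFBR2 count.

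TGFBR2 encodes the type II receptor that binds TGF-beta, without which the type I receptor is not engaged. The gene (ENSG00000163513) lies on the forward strand of GRCh37 chromosome 3, from 30648093 to 30735634. It had 479, 3 and 587 reads, which are normalized counts of 559, 2.78 and 540.4. The sh-METTL3 library thus stood far below the other pair, which lay close to each other. Its TGFBR2 level was 0.498% of sh-CTL (0.102% to 1.46%), 201-fold lower with a counting interval of 68.3 to 977. With 3 reads this fold is poorly bounded at its far end. With PLK1i the change was -0.05 (-0.22 to 0.13), an interval that holds 0. The TGFBR2 change of -7.21 in sh-METTL3 was the third largest fall of the 14949 genes. No other listed gene overlapped its span in the annotation.

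**Figure D1:**
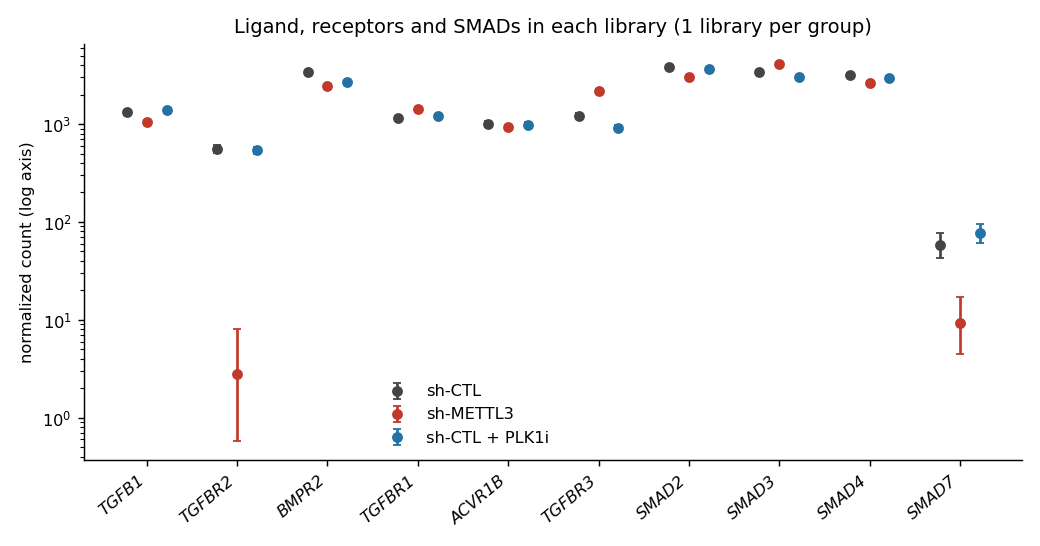
Normalized counts of the 10 genes in each library, on a log axis, with exact Poisson 95% intervals for counting error. TGFBR2 stands at 2.78 in sh-METTL3 against 559 and 540.4, SMAD7 at 9.27 against 58.3 and 76.4, and the other 8 genes lie within 2-fold of sh-CTL in both other libraries.

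No other receptor of the set passed 2-fold. TGFBR1, the type I receptor that TGFBR2 activates, had normalized counts of 1144, 1426 and 1200.5. It was highest in sh-METTL3, with a log2 change of 0.32 (0.20 to 0.44). Its change of 0.07 (-0.05 to 0.19) with PLK1i was within counting error. The 25 genes within 2 Mb of TGFBR1 that passed the expression minimum given below for neighbours had a median of 0.32 in sh-METTL3. Of these, 4 were below 0 and 3 were at least 2-fold higher. The median over 518 such genes of chromosome 9 was 0.11. TGFBR1 thus stood close to its neighbours, and a link of its rise to the TGFBR2 loss was not tested. ACVR1B, a type I receptor for activins, had 1004, 929 and 987, and its changes of -0.11 (-0.25 to 0.02) and -0.02 (-0.16 to 0.11) were both within counting error.

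BMPR2, the type II receptor for BMPs, had 3421, 2475 and 2662. Both libraries lay below sh-CTL, with changes of -0.47 (-0.54 to -0.39) and -0.36 (-0.44 to -0.29), but these values share the sh-CTL library and are not independent of each other. TGFBR3, a co-receptor also known as betaglycan that presents ligand to TGFBR2, moved the other way. It had 1214, 2174 and 922, so that it was highest in sh-METTL3. Its log2 change was 0.84 (0.73 to 0.95) in sh-METTL3, the largest rise among the 10 genes, and -0.40 (-0.52 to -0.27) with PLK1i.

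TGFB1, the ligand, had 1313, 1048 and 1403. It was lowest in sh-METTL3, at a log2 change of -0.32 (-0.45 to -0.20), and its change of 0.10 (-0.02 to 0.21) with PLK1i was within counting error. The span of TGFB1 overlaps 4 other listed genes, 3 of them on the opposite strand, including HNRNPUL1 with 18550 to 24147 reads. The library kit keeps strand, but the strand setting of the counting is not given in the sources used here, so reads of TGFB1 and of these genes may be mixed.

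Of the SMADs, SMAD2 and SMAD3 carry the signal of TGF-beta and activin, SMAD4 is their common partner, and SMAD7 is an inhibitor that TGF-beta itself induces. SMAD2 had 3850.4, 3000.4 and 3642, and SMAD4 had 3183, 2636 and 2977. Both were lowest in sh-METTL3, at -0.36 (-0.43 to -0.29) for SMAD2 and -0.27 (-0.35 to -0.20) for SMAD4. SMAD3 had 3399, 4094 and 3007, and was highest in sh-METTL3 at 0.27 (0.20 to 0.34). With PLK1i the changes of these 3 genes ran from -0.18 to -0.08.

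SMAD7 was the member that moved most after TGFBR2. It had 50, 10 and 83 reads, with normalized counts of 58.3, 9.27 and 76.4. The SMAD7 level in sh-METTL3 was 15.9% of sh-CTL (7.19% to 31.7%), a log2 change of -2.53 (-3.80 to -1.66). The change of 0.38 (-0.13 to 0.93) with PLK1i was within counting error, and the small read numbers leave it wide.

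**Figure D2:**
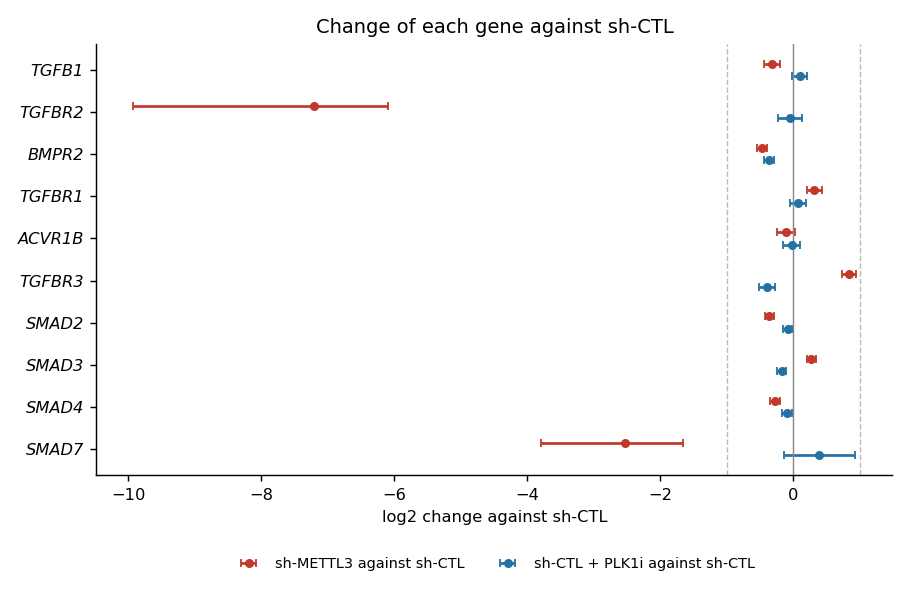
Log2 change of each gene against sh-CTL in sh-METTL3 (red) and sh-CTL + PLK1i (blue), with exact 95% counting intervals and dashed lines at 2-fold. Only TGFBR2 at -7.21 and SMAD7 at -2.53 lie outside the dashed lines, both in sh-METTL3.

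Levels were compared between genes per length, as RPKM, the reads divided by the kb of annotated exon and by the depth of the library. In sh-CTL the order from the top was TGFB1 at 9.21 RPKM, SMAD3 at 7.78, BMPR2 at 6.27, ACVR1B at 4.06, SMAD4 at 3.72, TGFBR1 at 3.28, TGFBR3 at 3.24, SMAD2 at 2.42, TGFBR2 at 1.87 and SMAD7 at 0.338. ACVR1B and SMAD4 did not differ beyond counting error, nor did TGFBR1 and TGFBR3. TGFBR2 was thus already the least abundant receptor of this set in sh-CTL. In sh-METTL3, SMAD3 took the top place at 9.40, TGFBR3 passed BMPR2, ACVR1B, SMAD4 and TGFBR1 to reach 5.82, and TGFBR2 came last at 0.00933, not distinct from SMAD7 at 0.0540 by their counting intervals. With PLK1i the order of the 10 genes was the same as in sh-CTL. The SMAD2 value depends on the annotation, in which its exons add up to 36426 bases against 3264 to 19606 for the others.

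Sequence features of the genes were read from the annotation. The letters GGACT, a common form of the site that METTL3 methylates, occurred 5 times in the canonical TGFBR2 transcript of 4530 bases, or 1.10 per kb. The median over 14789 listed genes was 0.922 per kb, with quartiles of 0.524 and 1.41, and the 10 members ran from 0.462 per kb in TGFBR1 to 1.44 in TGFB1. TGFBR2 and SMAD7, at 1.20 per kb, lay inside the quartiles of all genes. Whether any of these letters is methylated was not measured.

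The promoters of TGFBR2 and of genes that SMADs are known to act on are shown, because these genes were at least 2-fold lower in sh-METTL3. Each is the 250 bases before the most upstream RefSeq start, from GRCh38.p14, read 5′ to 3′ on the gene's strand, with capitals for AGAC or its reverse complement GTCT, the short box that SMAD proteins bind. They lie at chr3:30606106-30606355 (TGFBR2, forward strand), chr18:48950966-48951215 (SMAD7, reverse strand), chr15:66701986-66702235 (SMAD6, forward strand), chr3:170357465-170357714 (SKIL, forward strand) and chr6:131951373-131951622 (CCN2, reverse strand).
TGFBR2: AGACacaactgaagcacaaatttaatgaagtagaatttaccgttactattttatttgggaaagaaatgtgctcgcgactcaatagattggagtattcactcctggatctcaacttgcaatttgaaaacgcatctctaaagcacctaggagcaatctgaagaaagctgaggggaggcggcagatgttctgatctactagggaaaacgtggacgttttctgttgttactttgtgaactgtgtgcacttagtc
SMAD7: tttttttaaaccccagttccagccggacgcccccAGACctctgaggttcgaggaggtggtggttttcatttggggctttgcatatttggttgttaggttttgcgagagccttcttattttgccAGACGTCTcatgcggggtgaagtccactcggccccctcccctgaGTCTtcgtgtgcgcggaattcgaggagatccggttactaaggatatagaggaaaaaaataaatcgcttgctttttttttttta
SMAD6: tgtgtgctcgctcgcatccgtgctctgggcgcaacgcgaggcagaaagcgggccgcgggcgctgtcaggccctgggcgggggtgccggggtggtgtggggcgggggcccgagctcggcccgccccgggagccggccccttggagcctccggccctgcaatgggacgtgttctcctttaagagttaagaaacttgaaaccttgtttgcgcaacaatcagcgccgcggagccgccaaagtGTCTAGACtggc
SKIL: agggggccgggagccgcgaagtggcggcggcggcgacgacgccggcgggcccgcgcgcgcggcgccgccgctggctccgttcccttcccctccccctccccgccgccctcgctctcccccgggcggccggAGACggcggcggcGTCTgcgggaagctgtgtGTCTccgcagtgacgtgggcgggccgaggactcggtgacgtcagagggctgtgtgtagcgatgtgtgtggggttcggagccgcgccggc
CCN2: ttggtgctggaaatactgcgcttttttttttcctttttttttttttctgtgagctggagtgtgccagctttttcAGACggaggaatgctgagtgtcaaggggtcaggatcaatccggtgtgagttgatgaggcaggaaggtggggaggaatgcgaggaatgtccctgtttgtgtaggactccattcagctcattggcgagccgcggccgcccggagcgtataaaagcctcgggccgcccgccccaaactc

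The box occurred 4 times in the SMAD7 window, 3 times in SKIL, 2 times in SMAD6, and 1 time each in TGFBR2 and CCN2. As 77.5% of all 35116 RefSeq windows of this length hold at least 1 such box on either strand, its presence does not set these genes apart. The palindrome GTCTAGAC, in which a pair of boxes meet, was found in the SMAD6 window, in 0 windows of the 10 members, and in 0.182% of all windows. The number of boxes in a window was not set against that of all windows. Other genes that were at least 2-fold lower in sh-METTL3, such as SNAI2 and CDKN1A, are not shown. A match is a description of letters and not evidence of binding.

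The genes beside TGFBR2 were examined to see whether the loss extended along the chromosome. Of the 10 measured genes nearest to it, all lay downstream of it, at 0.924 to 1.87 Mb from start to start. STT3B, a subunit of the oligosaccharyltransferase, at 0.926 Mb, had 6193, 9114 and 7875 reads, a log2 change of 0.23 (0.18 to 0.27) in sh-METTL3. OSBPL10, at 1.05 Mb, changed by 0.26 (0.10 to 0.43) and GPD1L, a little farther, by 0.18 (0.08 to 0.28). CMTM6, CMTM7 and CMTM8, related membrane proteins, changed by 0.15 (0.10 to 0.20), 0.28 (0.19 to 0.38) and 0.28 (-0.06 to 0.63). The lowest was ZNF860, a zinc finger gene with 58, 38 and 68 reads, at -0.92 (-1.57 to -0.33). The remaining 3, KRT18P15 and a pair of genes without a symbol, had at most 29 reads in any library and changes of 0.00 to 0.40.

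Within 2 Mb, 8 genes had normalized counts that averaged 50 or more. None of the 8 changed by 2-fold in sh-METTL3, their median change was 0.20, and the median over 717 genes of chromosome 3 was 0.00. The loss in sh-METTL3 was therefore not seen in the measured neighbours, the nearest of which starts 0.924 Mb from the start of TGFBR2.

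SMAD2, SMAD7 and SMAD4 lie near each other on chromosome 18. Within 2 Mb of SMAD7, 14 of 15 genes with a mean of at least 50 were below 0 in sh-METTL3, with a median change of -0.25. Of the 15, 1 was at least 2-fold lower, LIPG at -1.44, which is named here after its value was seen and starts 0.641 Mb from SMAD7. The median over all 173 such genes of chromosome 18 was -0.13. The windows around SMAD2 and SMAD4 overlap this window and had medians of -0.21 over 16 genes and -0.25 over 12. SMAD4, at -0.27, was close to its neighbours, and SMAD2 stood at -0.36. SMAD7, at -2.53, lay 2.40 below the median of the chromosome. With PLK1i the median around SMAD7 was 0.04.

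**Figure D3:**
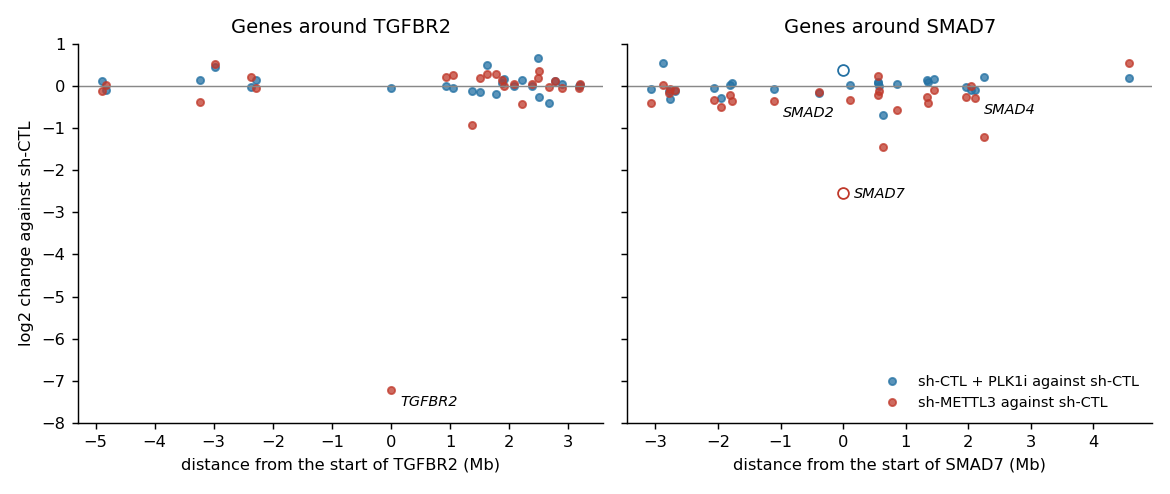
Log2 change against sh-CTL of genes within 5 Mb of TGFBR2 (left) and SMAD7 (right), by distance from the start of each gene, in sh-METTL3 (red) and sh-CTL + PLK1i (blue). Only genes whose normalized counts averaged 50 or more are drawn, and SMAD7, just under it, is an open circle. TGFBR2 stands alone at -7.21 among neighbours near 0, and most red points around SMAD7 lie slightly under 0.

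The wider pathway was followed through lists of ligands, receptors, SMADs, regulators and responsive genes. They named 138 genes besides the members, of which 95 were in the table. In sh-METTL3, 12 of the 95 were at least 2-fold lower and 6 at least 2-fold higher, which is 12.6% and 6.32%, against 2.94% and 3.42% of all genes. All of the 12 lower genes but GDF15 and NEDD4L stand in the TGF-beta-responsive or BMP-responsive list. The share of lower genes thus describes mainly those lists and not the ligands, receptors and regulators. With PLK1i, 1 of the 95 (1.05%) was lower and 3 (3.16%) were higher, against 1.13% and 1.39% of all genes. The medians of the 95 were -0.11 in sh-METTL3 and 0.09 with PLK1i. The sh-METTL3 library was the lowest of the 3 for 48 of the 95, or 50.5%, against 39% of all genes.

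Among the 3 TGF-beta ligands no gene passed 2-fold in either library. TGFB2 changed by 0.30 in sh-METTL3 and 0.22 with PLK1i. TGFB3, named here after its values were seen, had 218, 262 and 544 reads, a change of 0.98 with PLK1i. Of the 14 activin, nodal and GDF ligands 7 were in the table, and GDF15, a stress-induced cytokine, was lower in sh-METTL3 at -1.67 (-2.57 to -0.94), with 50 reads against 19. The most abundant of them, GDF11 and GDF1, changed by 0.40 and 0.46 in sh-METTL3. Of the 15 BMP ligands 5 were in the table, and BMP6 had 33, 103 and 107 reads, so that both other libraries were higher than the shared sh-CTL. BMP7 and AMH, the most abundant of the list, changed by 0.14 and 0.68 in sh-METTL3.

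TGFBR2 was the single receptor of either type to pass 2-fold. The 4 type II receptors in the table, with the members TGFBR2 and BMPR2 included, stood at a median of -0.43 in sh-METTL3. ACVR2A and ACVR2B, receptors for activins, changed by -0.39 and -0.11. The 4 type I receptors had a median of -0.14, and BMPR1A, the most abundant, changed by -0.17. The 7 co-receptors and decoys, TGFBR3 among them, had a median of 0.56 in sh-METTL3 and -0.29 with PLK1i. NRP1, a co-receptor of several growth factors, had 354, 1194 and 422 reads, a change of 1.42 in sh-METTL3, or 268% of sh-CTL (238% to 303%). BAMBI, a decoy receptor, went the other way, with 92, 36 and 60 reads and a change of -1.66 (-2.28 to -1.11). RGMB and CD109 changed by 0.63 and -0.22.

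All 8 SMAD genes were in the table. SMAD2, SMAD3, SMAD4 and SMAD7 among them are members, picked with their values known, so the share below is a description. Against 2.94% of all genes, 3 of the 8 (37.5%) were at least 2-fold lower in sh-METTL3. Besides SMAD7 these were SMAD6, the inhibitory SMAD of the BMP branch, with 131, 64 and 77 reads and a change of -1.35 (-1.82 to -0.92), and SMAD9, a receptor SMAD for BMPs, with 198, 123 and 217 reads and -1.01 (-1.35 to -0.69). SMAD6 was also lower with PLK1i, at -1.10 (-1.53 to -0.69), against the same sh-CTL library. SMAD1 and SMAD5, the other receptor SMADs for BMPs, changed by 0.29 and 0.08 in sh-METTL3. Thus both inhibitory SMADs were low in sh-METTL3, while SMAD1 to SMAD5 stayed within a change of 0.36 in size.

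**Figure D4:**
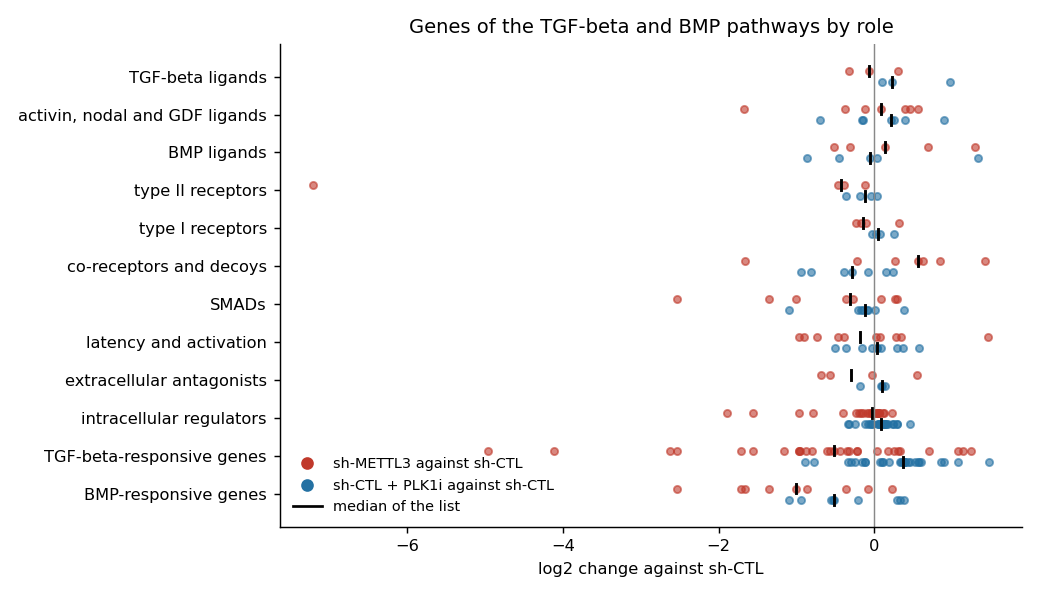
Log2 change against sh-CTL of each listed gene by role in the pathway, in sh-METTL3 (red) and sh-CTL + PLK1i (blue), with black bars at each list's median. The BMP-responsive and TGF-beta-responsive lists have the lowest medians in sh-METTL3, at -1.01 and -0.52, and the co-receptors the highest, at 0.56.

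Among proteins that hold the ligand latent or release it, 10 of 13 were in the table. FBN1, fibrillin, was higher in sh-METTL3 at 1.46 (0.85 to 2.18), with 26, 92 and 43 reads. ITGAV and LTBP3, the most abundant of this list, changed by 0.07 and 0.02. The 4 extracellular antagonists in the table had no 2-fold change, with NBL1 at -0.03 and NOG, noggin, at -0.69 in sh-METTL3.

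Of 24 intracellular regulators in the table, 2 (8.33%) were at least 2-fold lower in sh-METTL3 and 0 were higher, against 2.94% and 3.42% of all genes. No gene of the list changed by 2-fold with PLK1i. NEDD4L, a ubiquitin ligase that limits activated SMADs, had 1749, 589 and 2612 reads, a change of -1.90 (-2.04 to -1.77). It lies on chromosome 18, where its 12 neighbours within 2 Mb had a median of -0.37 and were all below 0. SKIL, a SMAD corepressor that TGF-beta induces, had 776, 332 and 1037 reads and changed by -1.55 (-1.75 to -1.37). STRAP and FKBP1A, the most abundant of the list, changed by -0.17 and -0.14.

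The TGF-beta-responsive genes held CCN2 and SNAI2, the pathway genes with the largest falls after TGFBR2. Of 34 listed, 29 were in the table, and 7 of these (24.1%) were at least 2-fold lower in sh-METTL3 and 3 were at least 2-fold higher. Of all genes, 2.94% were lower and 3.42% were higher in sh-METTL3. In all, 20 of the 29 were below 0, and sh-METTL3 was the lowest library for 18 (62.1%), against 39% of all genes. The medians of the list were -0.52 in sh-METTL3 and 0.37 with PLK1i, against medians of 0.00 over all genes. With PLK1i, 0 genes of the list were lower and 2 higher by 2-fold, against 1.13% and 1.39% of all genes. The labels name no added ligand, so these are levels and not responses to TGF-beta.

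The 7 lower genes were CCN2, SNAI2, COL1A1, SMAD7, CDKN1A, SKIL and BHLHE40. CCN2, a matricellular protein also known as connective tissue growth factor, had 350, 13 and 563 reads, a change of -4.97 (-6.01 to -4.29). SNAI2, a transcription factor of the epithelial-mesenchymal transition, had 289, 20 and 493 reads and changed by -4.11 (-4.92 to -3.53). For both genes sh-METTL3 was far below the other libraries, and sh-CTL + PLK1i was the highest. CDKN1A, the cell cycle inhibitor p21, had 434, 166 and 832 reads and changed by -1.71 (-1.98 to -1.46). BHLHE40, a transcription factor, had 2413, 1352 and 4506 reads and changed by -1.17 (-1.26 to -1.07). COL1A1, a collagen, had only 34, 6 and 36 reads and a change of -2.63 (-4.38 to -1.56). CCN2, SNAI2, CDKN1A and BHLHE40 also answer to other pathways, and the part of TGF-beta in their levels was not tested. The genes around CCN2 on chromosome 6 were not examined as those around TGFBR2 and SMAD7 were. TPD52L1 and PTPRK, given below among the genes most like TGFBR2, lie on chromosome 6 as well.

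The 3 higher genes were NUAK1, TGFBI and ADAM19. TGFBI, an extracellular matrix protein named for its induction by TGF-beta, had 800, 2132 and 911 reads, a change of 1.08 (0.97 to 1.20), in the direction opposite to SMAD7, SKIL and CCN2. NUAK1, a kinase, changed by 1.14 (0.94 to 1.34), and ADAM19, a metalloprotease, by 1.24 (0.44 to 2.20) on 16 and 49 reads. The list therefore did not move as a block.

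TSC22D1, a transcriptional regulator, changed by 0.17 in sh-METTL3 and -0.12 with PLK1i. PMEPA1, which limits TGF-beta signalling and was named here after its values were seen, stood just short of 2-fold in sh-METTL3 at -0.97 (-1.08 to -0.85). With PLK1i the 2 higher genes were SNAI1, with 107 reads against 286, and LMCD1, with 8 against 30.

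**Figure D5:**
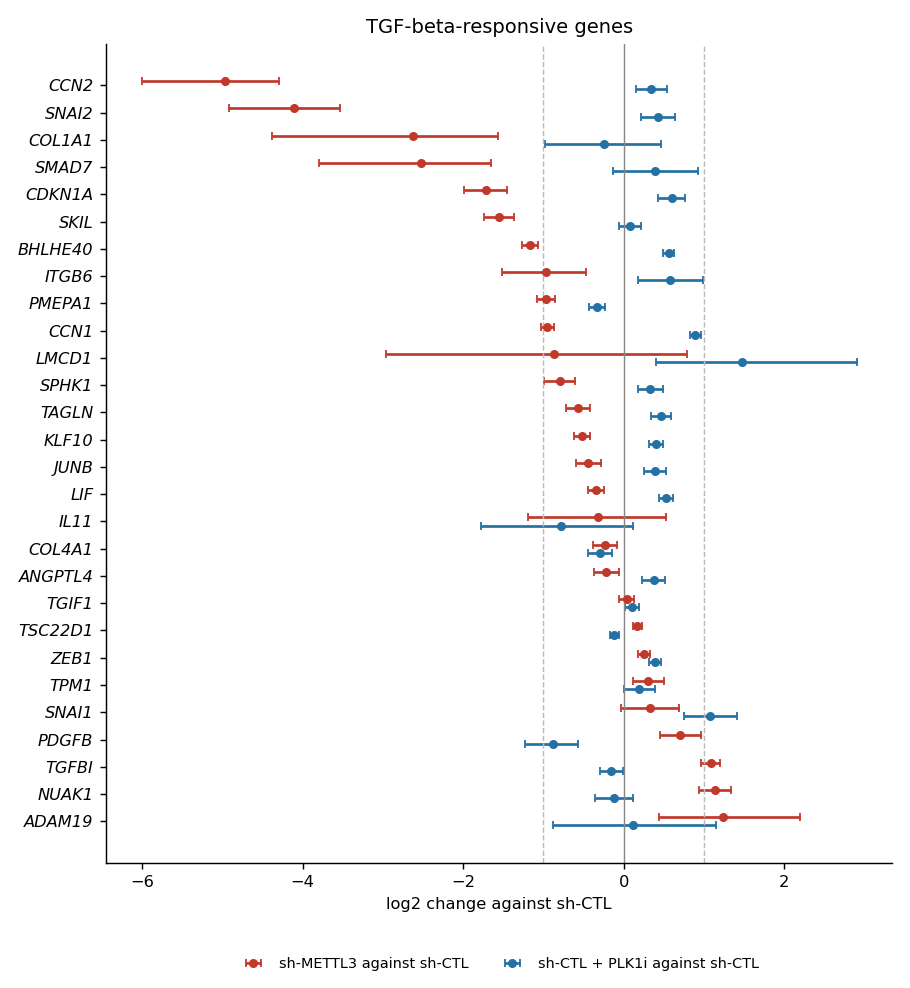
Log2 change against sh-CTL of the TGF-beta-responsive genes in the table, all but 1 of them drawn, in order of their change in sh-METTL3 (red), with sh-CTL + PLK1i in blue, exact 95% counting intervals and dashed lines at 2-fold. The red points run from -4.97 for CCN2 to 1.24 for ADAM19, and 7 lie left of the dashed line at -1.

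Of 12 BMP-responsive genes 9 were in the table, with a median of -1.01 in sh-METTL3. Against 2.94% of all genes, 5 of the 9 (55.6%) were at least 2-fold lower in sh-METTL3. They were SMAD7, SMAD6, SMAD9, BAMBI and ID2, of which the first 4 have been given above. ID2, an inhibitor of differentiation factors, had 2296, 884 and 2012 reads, a change of -1.71, or 30.6% of sh-CTL (28.3% to 33.1%). ID3 and ID1, the most abundant of the list, changed by -0.86 (-0.92 to -0.81) and -0.36 (-0.42 to -0.30). With PLK1i the median was -0.52, and SMAD6 alone passed 2-fold. SMAD7 stands in both responsive lists, so their counts are not separate, and it is also a member picked with its value known. SMAD7, SMAD6 and SMAD9 were also counted among the SMADs, and BAMBI among the co-receptors and decoys. SKIL was counted both among the intracellular regulators and among the TGF-beta-responsive genes. The shares given for these lists therefore reuse the same genes.

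Cell identity was checked with markers. KRT8 and KRT18, keratins of simple epithelia, had 82612 and 43957 reads in sh-CTL and changed by 0.26 and 0.27 in sh-METTL3. KRT19, another keratin, changed by 0.43, while DSP, CLDN4 and OCLN, proteins of cell junctions, changed by -0.78, -0.35 and -0.20. Of 10 epithelial markers 7 were in the table, of which 4 were below 0 in sh-METTL3 with a median of -0.20 over the 7. CDH1, EPCAM and CLDN7, which define many epithelia, were not found by symbol in the table. Of the epithelial list ESRP1, a splicing factor of epithelial cells, passed 2-fold in both libraries, with 26, 3 and 15 reads. In sh-METTL3, where 3 reads are at the floor, the change was -3.05 (-5.81 to -1.74). With PLK1i it was -1.08 (-2.16 to -0.16), an interval that also holds changes of less than 2-fold. Of 8 mesenchymal markers 4 were in the table, while CDH2, FN1, ZEB2 and TWIST1 were not found in it by symbol. Of the 4, 3 were below 0 in sh-METTL3. They were SNAI2 at -4.11, VIM at -0.40 and S100A4 at -0.23, while ZEB1, a transcription factor of the epithelial-mesenchymal transition, stood at 0.25. Of 10 markers of blood, endothelium, fibroblasts, acinar and islet cells, COL1A2 and COL1A1 were in the table. COL1A2, a collagen of fibroblasts, had 44101, 44201 and 44493 reads and was thus abundant in all 3 libraries. At a common depth its normalized counts were 51426, 40970 and 40961, a change of -0.33 (-0.35 to -0.31) in sh-METTL3 and the same with PLK1i. The part of these markers in the other results was not tested.

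The genes whose pattern over the 3 libraries was most like that of TGFBR2 were found by the Euclidean distance between profiles of log2(normalized count + 1), each centred on its own mean, among 12232 genes with a symbol and a mean of at least 50. With 3 values a profile, likeness says little more than a loss in sh-METTL3 of like depth. The nearest was HTR7, a serotonin receptor, at a distance of 0.252, with 143, 0 and 198 reads. AIM2, a sensor of cytosolic DNA, followed at 0.454, with 92, 0 and 100 reads. MMP16, a membrane-bound metalloprotease, stood at 0.709 and TPD52L1 at 0.758, the latter with 431, 6 and 543 reads.

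The next were PALM2AKAP2 at 0.815, PTPRK, a receptor tyrosine phosphatase, at 0.873, MMP1 and MMP10, secreted proteases whose genes lie side by side on chromosome 11, at 1.04 and 1.05, CCN2 at 1.69 and PDLIM1 at 1.76. PTPRK had 173, 2 and 209 reads and MMP1 had 301, 5 and 914. TPD52L1, PTPRK and CCN2 lie on chromosome 6, with starts at 125440195, 128289930 and 132269316 of GRCh37, and the other 7 genes are spread over 5 chromosomes, none of them chromosome 3. CCN2 is the gene that this search and the responsive list have in common. Over all genes, 5 had at most 3 reads in sh-METTL3 with at least 100 in both other libraries. TGFBR2, HTR7, PTPRK and PALM2AKAP2 were the 4 of them with a symbol.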

How the data were processed

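Total RNA was isolated with ISOGEN, and stranded mRNA libraries were prepared. The authors deposited 1 table of log2 values. The submitters' processing notes name FastQC 0.11.9, STAR 2.7.10, RSEM 1.3.3 and hg19, with no role given, and the normalization is not given in the sources used here. The deposited log2 values equalled log2 of a scaled read count plus 4, and reads were recovered from the spacing of low values (within 0.1 of a whole number for 100% of values under 2000 reads), with size factors of 0.858, 1.08 and 1.09 for sh-CTL, sh-METTL3 and PLK1i. Every listed gene reached 0.503 CPM in its highest library.

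The 3 columns were matched to the labels by name. Changes used a pseudocount of 1. Intervals were exact Clopper-Pearson, conditional on the sum of both libraries, and cover counting error only, since PCR copies cannot be told apart from separate molecules here. A gene at 3 reads or fewer was taken as at the floor. With 1 library per group no count test was run. Scripts were tested on simulated data. Positions and exon lengths came from GENCODE 44 mapped to GRCh37, which held 14858 of the 14949 identifiers, and promoters from RefSeq, GRCh38.p14. Python 3.11.15 and scipy 1.17.1 were used.

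The members, lists and rules were chosen with earlier results of these data known. Named were the members, METTL3, from each list the genes that passed 2-fold (mean of 10 or more) and the 2 most abundant, the 10 genes nearest to TGFBR2 and the 10 most like it. 1 gene that the rule names is not reported here. PLK1, which the rule also names, had a log2 change of -0.62 in sh-METTL3 and 0.08 with PLK1i. Alternatives were other pseudocounts, scalings, thresholds, expression minima, windows and centring on the chromosome.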

Additional observations from a re-analysis of the deposited data

How the results depend on the processing

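With pseudocounts of 4 or 0.5, upper-quartile scaling, scaling to total reads, or changes taken relative to the chromosome, every count of lower and higher genes among the members, the pathway genes and the responsive lists stayed within 1.5 times. Of 100 changes of single members recomputed under these settings, 98 stayed within the counting interval and none changed sign. The exceptions were SMAD2 and SMAD4 in sh-METTL3, at -0.23 and -0.14 relative to chromosome 18. Both scalings moved the median of all genes by at most 0.02. When normalized counts had to average 50 or 200 or more, SMAD7 dropped out and 1 lower member was left. At 200 the pathway genes without the members came to 7 lower and 3 higher in sh-METTL3 and 0 and 0 with PLK1i, and the BMP-responsive genes to 1 lower in sh-METTL3 and 0 with PLK1i. The TGF-beta-responsive genes higher with PLK1i numbered 1 at a minimum of 50 and 0 at 200.

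At a log2 change of 2, 141 of all genes were lower and 124 higher in sh-METTL3 and 18 and 34 with PLK1i, the pathway genes came to 3 lower and 0 higher in sh-METTL3 and 0 and 0 with PLK1i, the TGF-beta-responsive genes to 4 lower and 0 higher in sh-METTL3 and 0 higher with PLK1i, and the BMP-responsive genes to 1 lower in sh-METTL3 and 0 with PLK1i. At a log2 change of 0.5, 1245 of all genes were lower and 1440 higher in sh-METTL3 and 863 and 775 with PLK1i, 1 member was higher in sh-METTL3, the pathway genes came to 27 lower and 12 higher in sh-METTL3 and 11 and 11 with PLK1i, the TGF-beta-responsive genes to 15 lower in sh-METTL3 and 2 lower and 8 higher with PLK1i, and the BMP-responsive genes to 5 lower with PLK1i. Over all genes, a minimum of 200 left 123 lower and 111 higher in sh-METTL3 in place of 440 and 512, and 7 and 19 with PLK1i in place of 169 and 208. At a minimum of 50 these were 230, 250, 31 and 58. No neighbour of TGFBR2 passed 2-fold within 1, 2 or 5 Mb, and 9 of the 10 genes most like it were shared with a pseudocount of 4. The minima test fewer genes, and the thresholds are stricter or looser, by construction.

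No paired analysis was possible because each group held 1 library. With 3 reads of TGFBR2 in sh-METTL3 the depth cannot tell a complete loss from a low residue, and variation between cultures was not measured.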
